A study of Homo sapiens with 6 samples.

Results

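The 10 genes described here encode inducible brakes on MAP kinase signalling: the dual-specificity phosphatases DUSP1, DUSP2, DUSP4, DUSP5, DUSP6 and DUSP10, and the Sprouty-related proteins SPRY1, SPRY2, SPRED1 and SPRED2. They were chosen by name, with earlier results of these data known, and were found as 10 of the 16444 genes in the deposited spike-in comparison and as 9 of the 12075 genes in the deposited table of FPKM (sequenced fragments per unit of transcript length, scaled to the size of the library). DUSP4 is not among the genes of the FPKM table used here. The cells were KMS27, a human multiple myeloma line, in which Che-1, the chromatin-associated protein encoded by AATF, had been silenced by siRNA (siChe-1), beside cells given a control siRNA (siControl). Each group had 3 libraries of ribosome-depleted total RNA, all from this 1 line. The sources used here do not give the time after transfection. The labels name no separate cultures behind the libraries, so the p-values below describe library-to-library spread, which may be technical.

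In the MAP kinase cascades, receptors act through RAS, RAF and MEK on the kinase ERK, and stress signals act through parallel arms on JNK and p38. Active ERK induces transcription of its own inhibitors. DUSP proteins of this class remove both activating phosphates from MAP kinases, Sprouty proteins act near the receptor and RAF, and SPRED proteins recruit neurofibromin, the RAS-inactivating protein encoded by NF1, to the membrane. Multiple myeloma is a cancer of plasma cells in which RAS genes are among those most often mutated.

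The targeted gene was examined first. AATF had 7157, 9855 and 10905 spike-in-normalized reads in siControl replicates 1 to 3 and 672 and 549 in siChe-1 replicates 1 and 2, and its FPKM were 97.0, 88.8 and 119 against 14.2, 14.2 and 16.9. The spike-in comparison rests on 5 libraries, without siChe-1 replicate 3, and whole reads were recovered from its group means for 99.3% of genes, including all 10 inhibitors. These 5 libraries held 19169774 to 21780505 recovered gene reads. Each spike-in read was matched by 38.8, 56.7 and 57.9 gene reads in siControl and by 22.9 and 19.4 in siChe-1. Replicate 3 of siChe-1 held 379232 spike-in reads, against 351573 to 519573 in siControl and 835414 and 1041244 in the other siChe-1 libraries, so the spike-in scale below does not describe that library. In the FPKM table all 8 plasma cell markers were listed, with a summed FPKM of 770 to 880 in siControl, against 722 to 778 in siChe-1. Of these markers 2 were called higher and 2 lower by limma: XBP1, a transcription factor of secretory cells and the most abundant, fell from 290.4 ± 34.5 to 195.5 ± 14.2 FPKM (adjusted p = 0.0187), as did MZB1, while CD38 and TNFRSF17 rose, the last 3 being named after their values were seen. None of 5 myeloid and none of 4 stromal fibroblast markers were listed in the FPKM table, which held CD3G alone of 5 T cell markers (summed FPKM 0.413 to 0.638 and 0.363 to 0.730) and HBB alone of 4 erythroid markers (0.203 to 0.693 and 0.0613 to 0.123). The spike-in table held 4 of the myeloid, 3 of the T cell, 3 of the stromal and 2 of the erythroid markers. The highest of these was the myeloid marker ITGAM with 31 to 44 recovered reads per library, a level near that of DUSP4 (19 to 37). The part of such cells in the results was not tested.

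On the FPKM scale, which compares genes per length, the inhibitors of siControl cells fell into a higher and a lower set. DUSP5 was highest at 37.8 ± 2.79 FPKM (SD, n = 3), followed by DUSP6 at 23.4 ± 3.75, DUSP1 at 19.3 ± 1.13, SPRY1 at 18.2 ± 1.65, SPRED1 at 15.5 ± 1.83 and SPRED2 at 15.2 ± 0.61. SPRY2 at 4.03 ± 0.83, DUSP2 at 3.39 ± 1.36 and DUSP10 at 2.61 ± 0.09 made up the lower set. Between neighbours in this order, the 3 libraries of one gene lay apart from those of the next only at the step from DUSP5 to DUSP6 and at the step from SPRED2 to SPRY2. In siChe-1 cells the order began with DUSP6 at 32.2 ± 1.59, DUSP5 at 31.1 ± 5.08 and SPRED1 at 22.4 ± 3.69. It went on with SPRY1 at 20.3 ± 1.45, DUSP1 at 19.7 ± 1.19, SPRED2 at 17.6 ± 1.87, SPRY2 at 3.99 ± 0.47, DUSP10 at 3.23 ± 0.13 and DUSP2 at 2.67 ± 0.58. There the libraries of DUSP6 and DUSP5 overlapped, and neighbours stood apart at the steps from DUSP5 to SPRED1, from SPRED2 to SPRY2 and from SPRY2 to DUSP10.

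**Figure D1:**
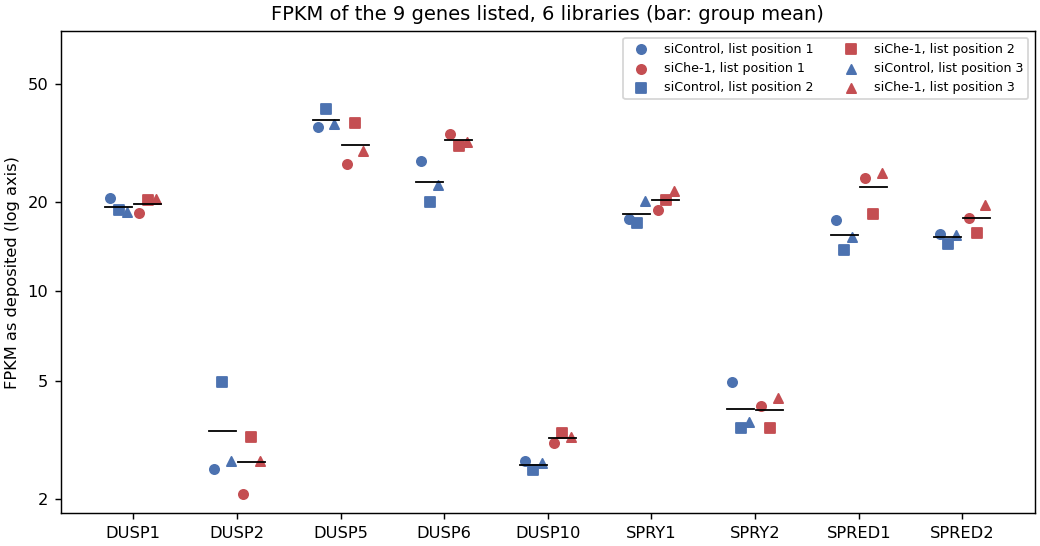
FPKM as deposited (log axis) of the 9 listed genes in the 3 siControl libraries (blue) and the 3 siChe-1 libraries (red), with marker shapes for the position of a library in the deposited list and bars for group means. The groups stand apart in DUSP6, DUSP10, SPRED1 and SPRED2, where siChe-1 is higher, and DUSP5 ranks first in siControl and second in siChe-1. How many of all genes stand apart was counted only on rescaled FPKM, where siChe-1 lay higher in 26.4%.

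Measured against the spike-ins, RNA of all 10 inhibitors was lower in the 2 siChe-1 libraries that this scale covers, replicates 1 and 2. In each gene both siChe-1 libraries lay below all 3 siControl libraries, as did 89.5% of all 12468 genes tested, and edgeR's quasi-likelihood test called all 10 lower (Benjamini-Hochberg adjusted p under 0.05), beside a background of 84.3% of genes lower and 0.192% higher. The fall of the 10 inhibitors had a median of -1.14 on the log2 scale, beside -1.24 over all genes, with 7 of them above the median gene and DUSP2, DUSP4 and DUSP5 below it. In the authors' deposited table, 5 of the 10 were lower at their adjusted p (DUSP1, DUSP5, SPRY1, SPRY2 and SPRED2) and 0 were higher, beside 63.5% and 0.0635% of the 12591 genes of that table with an adjusted p and a mean of at least 10 normalized reads, over which ranks within it are given below. The edgeR count rested on single libraries: without siChe-1 replicate 2 only DUSP5 was called, 6 were called without siChe-1 replicate 1 or without siControl replicate 3, 7 without siControl replicate 2 and 10 without siControl replicate 1. In bulk RNA, fewer cells and less RNA per cell cannot be told apart.

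**Figure D2:**
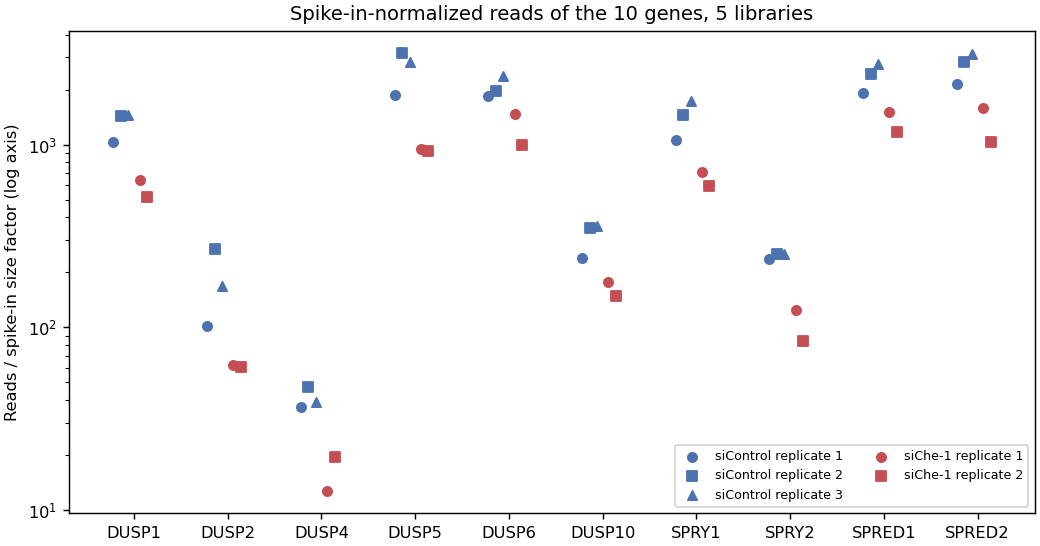
Recovered reads divided by the spike-in size factor (log axis) for each of the 10 genes, in 3 siControl libraries (blue) and 2 siChe-1 libraries (red), with marker shapes for the replicate number. Both siChe-1 points lie below all 3 siControl points in every gene, from DUSP4 at 12.7 to 46.9 up to DUSP5 at 923 to 3165.

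Relative to other genes in the same library, some of the inhibitors rose after siChe-1 and none was called lower. On FPKM rescaled so that the median abundant gene does not change, limma (adjusted p under 0.05) called DUSP6, DUSP10, SPRED1 and SPRED2 higher after siChe-1, 4 of the 9 tested, and 0 lower, where 16.8% of 10778 genes were called higher and 11.2% lower. The 9 genes had a median log2 change of 0.24, beside 0.06 over all genes, and 7 lay above the median gene, with DUSP2 and DUSP5 below. After rescaling, the groups stood apart in 5 of the 9, all higher in siChe-1, as they did in that direction in 26.4% of genes. When the recovered reads were rescaled by TMM, which takes out the shift shared by most genes, edgeR called DUSP6 and SPRED1 higher, 2 of 10, and 0 lower, beside 13.5% of genes higher and 15.3% lower. The FPKM count fell to 0 without the siControl library at list position 3, to DUSP6 alone without the siChe-1 library at position 1 or position 3, and to DUSP6 and SPRED1 without the siControl library at position 1 or 2 or on FPKM as deposited. Without the siChe-1 library at position 2 it was DUSP6, SPRED1 and SPRED2.

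**Figure D3:**
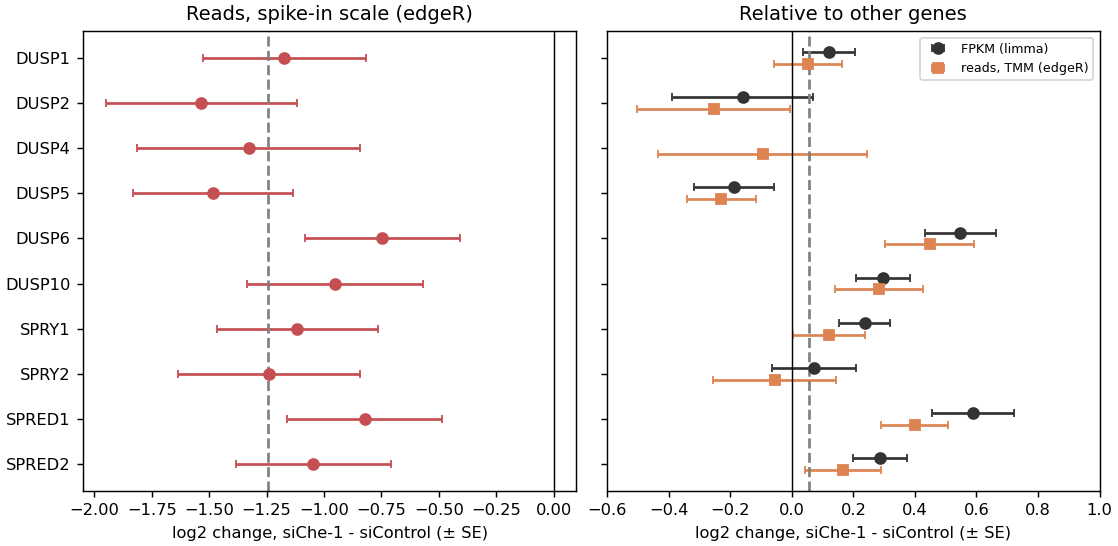
Log2 change, siChe-1 minus siControl, with its standard error for each gene: left, recovered reads on the spike-in scale; right, log2(FPKM + 1) in black and reads rescaled by TMM in orange, with a dashed line at the median change of all genes (-1.24 on the left, 0.06 for FPKM on the right). On the left all 10 genes lie below 0, and on the right DUSP6 and SPRED1 lie farthest above it. There DUSP2 and DUSP5 lie below 0 on both scales, and SPRY2 only on TMM-scaled reads. DUSP4, which has no FPKM value, has a TMM point alone, also below 0. These TMM points of SPRY2 and DUSP4 lie within their standard errors of 0.

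DUSP6 encodes a cytoplasmic phosphatase selective for ERK, a widely used readout of ERK signalling. It spans hg19 chr12:89741837-89746296 on the minus strand. The recovered reads were 1661, 1215 and 1579 in siControl, against 2195 and 1897 in siChe-1, or 1847, 1963 and 2381 against 1467 and 995 per spike-in size factor. Its FPKM were 27.4, 19.97 and 22.7 in siControl, against 33.9, 30.8 and 31.9 in siChe-1. FPKM were thus higher in all 3 siChe-1 libraries. In the 2 siChe-1 libraries with recovered reads, raw reads were also higher, while the spike-in-normalized reads were lower. The FPKM rose by a log2 of 0.55 ± 0.11 (SE; limma, adjusted p = 0.0122) and the TMM-scaled reads by 0.45 ± 0.14 (edgeR, adjusted p = 0.0346), while on the spike-in scale DUSP6 fell by 0.75 ± 0.34 (edgeR, adjusted p = 0.0338). This was the smallest fall of the 10, and in the authors' deposited table its log2 change of -0.75 (adjusted p = 0.0920) lay above that of 87.1% of genes. Without the siControl library at list position 3 the limma adjusted p was 0.0535. An annotated antisense gene, AC024909.2, overlaps DUSP6 on the opposite strand, and the sources used here do not say whether reads were counted by strand.

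SPRED1, on hg19 chr15:38545052-38649450 (plus strand), encodes the membrane adaptor that binds neurofibromin. Its reads were 1718, 1508 and 1838 in siControl, against 2258 and 2240 in siChe-1, and per spike-in size factor 1911, 2437 and 2772 against 1510 and 1174. FPKM were 17.4, 13.8 and 15.2 against 24.1, 18.2 and 25.0, so the lowest siChe-1 library was just above the highest siControl library. SPRED1 rose by a log2 of 0.59 ± 0.13 on FPKM (limma, adjusted p = 0.0162) and by 0.40 ± 0.11 on TMM-scaled reads (edgeR, adjusted p = 0.0166). On the spike-in scale it fell by 0.82 ± 0.34 (edgeR, adjusted p = 0.0191), and the authors' deposited value of -0.82 (adjusted p = 0.0746) lay above that of 83.9% of genes. The limma adjusted p was 0.0649 without the siControl library at position 3, 0.0558 without the siChe-1 library at position 1 and 0.0648 without that at position 3.

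SPRED2, its close relative, lies on hg19 chr2:65537985-65659656 (minus strand). Its reads were 1929, 1754 and 2088 against 2379 and 1971, and per spike-in size factor 2145, 2834 and 3149 against 1590 and 1033. FPKM of 15.6, 14.5 and 15.4 in siControl lay below 17.6, 15.8 and 19.5 in siChe-1. The gap between the groups was narrow. SPRED2 rose by 0.29 ± 0.09 in log2 FPKM (limma, adjusted p = 0.0465). Its TMM-scaled change was 0.17 ± 0.12 (edgeR, adjusted p = 0.344), and against the spike-ins it fell by 1.05 ± 0.34 (edgeR, adjusted p = 0.00334). The limma call was kept in only 1 of the 6 fits that each left out 1 library, that without the siChe-1 library at position 2, with an adjusted p of 0.0855, 0.0953 and 0.13 without siControl position 1, 2 and 3, and 0.12 and 0.148 without siChe-1 position 1 and 3. It was also lost on FPKM as deposited (adjusted p = 0.173) and after upper-quartile scaling (adjusted p = 0.0505). A sense intronic gene, AC012370.1, lies within SPRED2.

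The Sprouty genes SPRY1 and SPRY2, whose products bind GRB2 and RAF, were called on neither relative scale. SPRY1 (hg19 chr4:124317956-124324909, plus strand) had 956, 893 and 1152 reads in siControl, against 1060 and 1137 in siChe-1, and 1063, 1443 and 1737 against 709 and 596 per spike-in size factor. Its FPKM were 17.6, 17.0 and 20.1 against 18.8, 20.3 and 21.7, overlapping as deposited, and the log2 change of 0.24 ± 0.08 did not pass (limma, adjusted p = 0.0703). SPRY2 (hg19 chr13:80910112-80915086, minus strand) had 213, 155 and 168 reads against 187 and 161. Its normalized reads were 237, 250 and 253 in siControl, against 125 and 84.4 in siChe-1. These siControl values had the smallest SD relative to the mean of the 10 genes (247 ± 8.78), which was not so on FPKM (4.03 ± 0.83). FPKM of SPRY2 were 4.98, 3.48 and 3.63 against 4.13, 3.47 and 4.37, a log2 change of 0.07 ± 0.14 (limma, adjusted p = 0.727). On the spike-in scale SPRY1 fell by 1.12 ± 0.35 (edgeR, adjusted p = 0.00266) and SPRY2 by 1.24 ± 0.40 (edgeR, adjusted p = 0.00308).

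Of the nuclear phosphatases, DUSP5, which acts on ERK and anchors it in the nucleus, was the most abundant. DUSP5 (hg19 chr10:112257625-112271302, plus strand) had 1676, 1959 and 1874 reads in siControl, against 1420 and 1760 in siChe-1, and 1864, 3165 and 2826 against 949 and 923 per spike-in size factor. Its FPKM of 35.8, 40.9 and 36.5 overlapped those of siChe-1, at 26.9, 36.8 and 29.7, through the library at list position 2. The log2 change on FPKM was -0.19 ± 0.13 (limma, adjusted p = 0.321) and that on TMM-scaled reads -0.23 ± 0.11 (edgeR, adjusted p = 0.147), so neither relative scale gave a call. On the spike-in scale DUSP5 fell by 1.48 ± 0.35 (edgeR, adjusted p = 9.0e-05), and it was the 1 gene of the 10 whose call remained without siChe-1 replicate 2. In the authors' deposited table its log2 change was -1.48 (adjusted p = 0.00540), above that of 27.0% of genes. The pseudogene DUSP5P had 21 to 32 reads per library, and reads shared between the copies could be split between them.

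DUSP1, an immediate early phosphatase that acts on p38, JNK and ERK, was called on neither relative scale. DUSP1 (hg19 chr5:172195093-172198203, minus strand) had 932, 884 and 961 reads in siControl, against 963 and 980 in siChe-1. Per spike-in size factor these were 1037, 1428 and 1449 against 644 and 514. FPKM were 20.6, 18.8 and 18.5 against 18.3, 20.3 and 20.4, and the groups overlapped over most of their range. The log2 change on FPKM was 0.12 ± 0.08 (limma, adjusted p = 0.330). Against the spike-ins DUSP1 fell by 1.17 ± 0.35 (edgeR, adjusted p = 0.00178), close to the median gene. The antisense gene AC022217.3 overlaps it on the opposite strand.

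DUSP2 and DUSP4, inducible nuclear phosphatases of ERK and its relatives, were low. DUSP2 (hg19 chr2:96808908-96811179, minus strand) had 91, 165 and 111 reads in siControl, against 93 and 115 in siChe-1, or 101, 267 and 167 against 62.2 and 60.3 normalized. FPKM were 2.53, 4.95 and 2.69 against 2.08, 3.24 and 2.69, highest in both groups in the library at list position 2. Its FPKM change was -0.16 ± 0.23 (log2; limma, adjusted p = 0.636). DUSP4 had only 33, 29 and 26 reads in siControl, against 19 and 37 in siChe-1, or 36.7, 46.9 and 39.2 against 12.7 and 19.4 normalized, and its TMM-scaled log2 change of -0.09 ± 0.34 (edgeR, adjusted p = 0.859) carried the widest error of the 10. On the spike-in scale DUSP2 fell by 1.53 ± 0.42 (edgeR, adjusted p = 0.000590) and DUSP4 by 1.33 ± 0.49 (edgeR, adjusted p = 0.00892). The authors' deposited table gave neither gene an adjusted p under 0.05 (0.128 for DUSP2 and 0.0843 for DUSP4).

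DUSP10, a phosphatase that prefers JNK and p38, was low, with a small spread between libraries on FPKM (2.61 ± 0.09 in siControl) but not in normalized reads (316 ± 66.6). It lies on hg19 chr1:221874764-221915516 (minus strand). The reads were 215, 215 and 239 in siControl, against 266 and 283 in siChe-1, or 239, 347 and 360 against 178 and 148 normalized. FPKM were 2.68, 2.51 and 2.65 against 3.09, 3.35 and 3.24, with no overlap. DUSP10 rose by a log2 of 0.30 ± 0.09 on FPKM (limma, adjusted p = 0.0404), which on this log2(FPKM + 1) scale understates the change of a low gene. The TMM-scaled change was 0.28 ± 0.14 (edgeR, adjusted p = 0.161), and against the spike-ins it fell by 0.95 ± 0.38 (edgeR, adjusted p = 0.0172). The limma call was lost in each of the 6 fits that left out 1 library, with an adjusted p of 0.0796 to 0.117, and on FPKM as deposited (adjusted p = 0.104).

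To set the sequence before the start site beside these values, the 250 bases upstream of DUSP6 and SPRED1, the genes called higher on both relative scales, are shown with those of DUSP1, which was called on neither. The set of RefSeq promoters on GRCh38.p14 used here held 13 promoters for 8 of the 10 genes. DUSP4 and DUSP5 had no entry in this set. The sequences shown lie at chr12:89352502-89352751 (minus strand), chr15:38252586-38252835 (plus strand) and chr5:172771196-172771445 (minus strand). Each runs 5′ to 3′ along the gene and ends at the base before the start, and capitals mark every match, on either strand, to the motifs searched.
DUSP6: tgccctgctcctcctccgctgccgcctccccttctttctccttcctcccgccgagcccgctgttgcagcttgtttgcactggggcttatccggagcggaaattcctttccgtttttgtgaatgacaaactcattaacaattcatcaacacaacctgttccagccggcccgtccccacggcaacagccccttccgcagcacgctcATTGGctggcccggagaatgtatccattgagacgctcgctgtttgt
SPRED1: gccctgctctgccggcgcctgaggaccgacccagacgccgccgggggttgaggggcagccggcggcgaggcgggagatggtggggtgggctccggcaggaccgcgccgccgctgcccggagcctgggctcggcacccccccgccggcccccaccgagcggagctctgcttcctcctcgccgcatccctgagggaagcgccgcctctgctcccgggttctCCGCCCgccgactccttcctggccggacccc
DUSP1: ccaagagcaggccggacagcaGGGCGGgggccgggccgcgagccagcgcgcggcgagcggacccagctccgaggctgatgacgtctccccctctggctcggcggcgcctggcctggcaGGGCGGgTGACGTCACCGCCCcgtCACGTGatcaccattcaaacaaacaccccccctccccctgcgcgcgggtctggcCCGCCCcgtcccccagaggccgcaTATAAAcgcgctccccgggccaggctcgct

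The motifs searched were the cAMP response element TGACGTCA, the AP-1 site TGANTCA, the ETS core CCGGAA, the GC box GGGCGG, the E-box CACGTG, the CCAAT box CCAAT and the TATA box TATAAA. The DUSP1 window held a cAMP response element beginning 125 bases before the start, 4 GC boxes, an E-box at 108 and a TATA box at 30. The GC boxes at 132 and 117 bases flank the cAMP response element. Of 35116 promoters in the table, 1.65% held a cAMP response element, 42.6% a GC box, 6.34% an E-box and 10.7% a TATA box. The DUSP6 window held a CCAAT box at 46 bases (32% of promoters), and the SPRED1 window held a GC box at 31. None of the 3 windows held the AP-1 or ETS letters, which 6.57% and 14.5% of promoters hold. GC content was 74.4% for DUSP1, 57.2% for DUSP6 and 78.4% for SPRED1, beside a median of 58% over all promoters. A match is a description of the sequence only.

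DUSP6, SPRY1 and SPRED2 were listed with 2 transcripts each. NM_001946 made up 98.9% ± 1.01 of DUSP6 FPKM in siControl, against 98.4% ± 1.56 in siChe-1 (SD, n = 3). For SPRY1, the minor transcript NM_005841 made up 5.63%, 7.21% and 3.05% of the gene's FPKM in siControl, against 10.5%, 10.97% and 16.4% in siChe-1, so its share was higher in every siChe-1 library. Its FPKM was low, at 0.94 ± 0.31 against 2.59 ± 0.85. In the authors' deposited table its log2 change was 1.46 (q = 0.0950), beside 0.03 (q = 0.915) for the major transcript NM_199327. Both SPRY1 transcripts were listed over the same span, so these shares depend on how shared reads were split. How often transcript shares of other genes stand apart was not counted. For SPRED2, NM_181784 made up 37.997%, 59.8% and 41.4% in siControl, against 35.3%, 73.2% and 31.4% in siChe-1. The high shares were those of the library at list position 2 in both groups, and the groups overlapped. In the authors' deposited table, NM_001946 of DUSP6 (log2 0.45, q = 0.00159) and NM_152594 of SPRED1 (log2 0.53, q = 0.000601) were the only transcripts of the 9 genes with a q under 0.05.

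**Figure D4:**
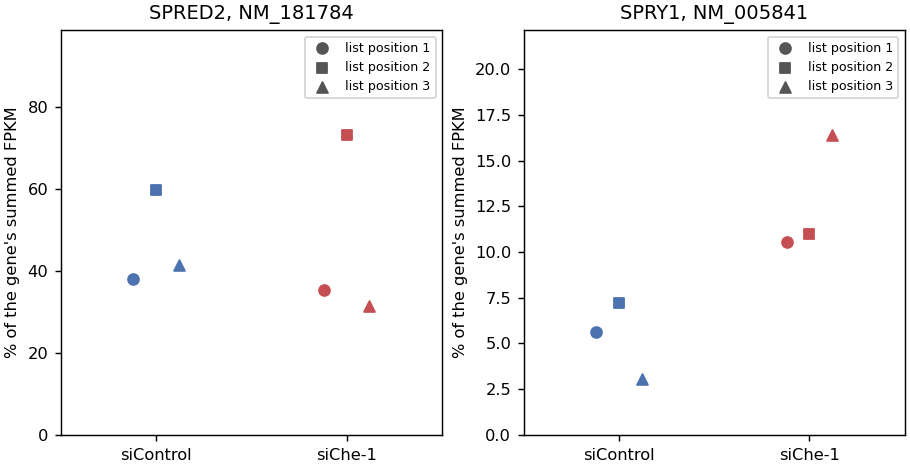
Share of a gene's summed FPKM held by NM_181784 of SPRED2 and NM_005841 of SPRY1 in each library (blue siControl, red siChe-1), with marker shapes for list position. SPRY1 shares are 3.05% to 7.21% in siControl and 10.5% to 16.4% in siChe-1, and SPRED2 shares reach 59.8% and 73.2% at list position 2.

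The rest of the pathway was described with 7 lists of 86 genes, of which 61 were tested on FPKM. Of these, 10 were called higher and 8 lower, beside the 16.8% and 11.2% of all genes given above, and their median log2 change was 0.10. Among other MAP kinase phosphatases and Sprouty family genes, 0 of 2 tested were higher and 1 lower. DUSP7, another cytoplasmic ERK phosphatase, fell from 2.81 ± 0.05 to 1.53 ± 0.36 FPKM, the direction opposite to DUSP6 (log2 -0.54 ± 0.13, limma adjusted p = 0.0224). The log2(FPKM + 1) scale understates the change of such low genes, and on TMM-scaled reads DUSP7 changed by -0.69 ± 0.18. DUSP16, a phosphatase for JNK, had 4.69 ± 0.68 and 5.64 ± 0.26 FPKM (limma, adjusted p = 0.0848). Of 8 atypical dual-specificity phosphatases, which lack the MAP kinase binding domain, 0 were higher and 2 lower: DUSP12 fell by a log2 of 0.63 ± 0.08 and DUSP11, an RNA phosphatase, by 0.41 ± 0.09 (limma, adjusted p = 0.00187 and 0.0127).

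Upstream of these brakes, 2 of 15 genes of the RAS to ERK core were higher, 1 was lower and 12 were not called, with a median of 0.00. SOS2, a RAS exchange factor, rose from 22.9 ± 2.26 to 32.0 ± 1.47 FPKM (log2 0.56 ± 0.10; limma, adjusted p = 0.00822), and ARAF, a RAF kinase, fell from 22.9 ± 1.498 to 14.3 ± 0.47 (log2 -0.56 ± 0.09; limma, adjusted p = 0.00527). PTPN11, the most abundant, was at -0.04 (limma, adjusted p = 0.658). In the JNK and p38 core 2 of 13 were higher and 1 lower. MAP3K1 rose from 32.8 ± 2.42 to 57.1 ± 2.04 FPKM and MAP3K5 from 7.57 ± 0.86 to 13.1 ± 1.77 (limma, adjusted p = 0.000900 and 0.00325); both encode kinases at the head of stress cascades. MAPK12, a p38 kinase named after its values were seen, fell (log2 -0.47; limma, adjusted p = 0.0270), and MAP3K7, the most abundant, was at -0.12 (limma, adjusted p = 0.410). Of 9 kinases downstream of MAP kinases 2 were lower, MKNK1 (log2 -0.60) and RPS6KA1 (log2 -0.47; limma, adjusted p = 0.00450 and 0.0139), and 0 higher, with the most abundant, RPS6KA3, at 0.04.

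Among 9 other brakes on RAS and receptors, 4 were higher and 1 lower, with a median log2 change of 0.34. CBLB, a ubiquitin ligase for receptors, rose from 1.42 ± 0.21 to 2.61 ± 0.24 FPKM (log2 0.64 ± 0.12, limma adjusted p = 0.00794). The log2(FPKM + 1) scale understates this change too, and on TMM-scaled reads it was 0.95 ± 0.14. NF1, the partner of SPRED proteins, rose from 20.2 ± 1.33 to 24.6 ± 1.93 (log2 0.36; limma, adjusted p = 0.0281), as did CBL (0.34) and ERRFI1 (0.39), all 3 named after their values were seen. PEBP1, an inhibitor of RAF and the most abundant of the list, fell from 209.6 ± 20.2 to 114 ± 10.1 FPKM (log2 -0.77 ± 0.11; limma, adjusted p = 0.00287). Of 13 ERK output genes only 5 were listed and tested on FPKM, with 2 higher, 0 lower and 3 not called. ETV5 rose from 9.51 ± 0.81 to 16.1 ± 0.79 FPKM (log2 0.79 ± 0.10, limma adjusted p = 0.00238). FOS rose from 16.9 ± 0.85 to 24.4 ± 3.58 (log2 0.59 ± 0.11, limma adjusted p = 0.00858). ETV1, the most abundant of the list, was at 0.13 (limma, adjusted p = 0.272). On the spike-in scale 56 of 71 pathway genes were called lower by edgeR and 0 higher, while the authors' deposited table gave 41 of 71 as lower and 0 as higher, to be read against the 84.3% and 63.5% above.

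**Figure D5:**
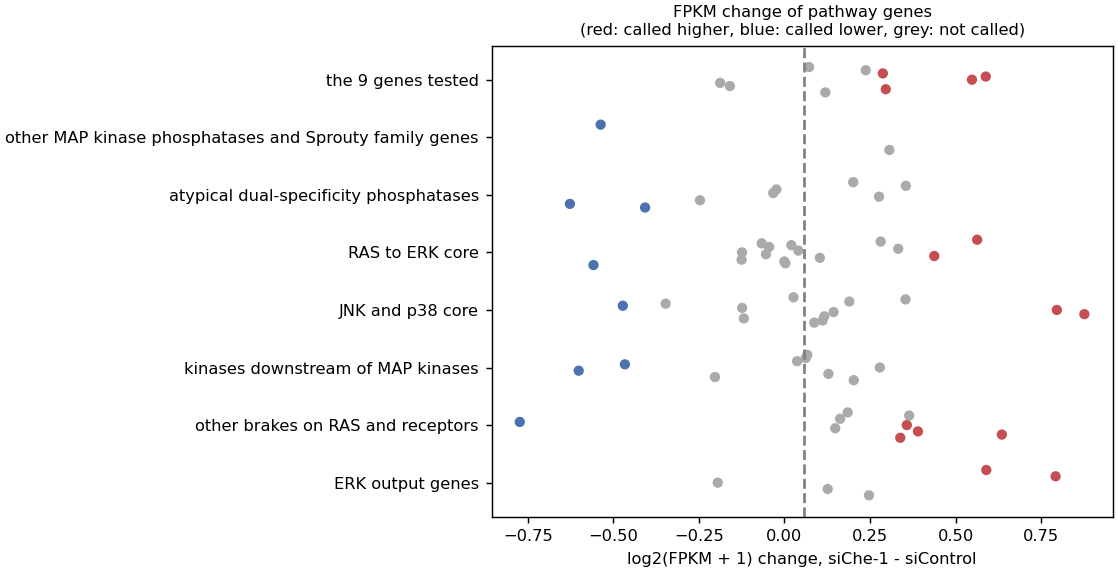
Change in log2(FPKM + 1), siChe-1 minus siControl, of each tested gene, one row of points per list, with the 9 inhibitors on top and a dashed line at the median of all genes (0.06). Red points are called higher and blue points lower by limma; 4 of 9 inhibitors are red and none blue, and the other lists together hold 10 red and 8 blue points.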

How the data were processed

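Per the labels' protocols, libraries were made from total RNA with a stranded kit after ribosomal RNA removal. The submitters' processing notes name HTSeq, DESeq2, TopHat, Cufflinks and Cuffdiff, without versions, and the build hg19. The deposited spike-in count table holds raw reads per library. The authors' gene table holds a signal (reads over spike-in size factor, averaged per group), its ratio, log2 and p-values, per the file headers. The authors' transcript table holds FPKM per library without replicate numbers (called list positions here), with log2, p-value and q-value.

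Whole reads were recovered from the authors' group means for 16321 of 16444 genes. The other 123 allowed more than 1 solution. Recovered reads were fitted with edgeR 4.0.16 (R 4.3.3) on the spike-in factors, genes with a mean of at least 10 normalized reads, standard errors from the F statistic. FPKM of transcripts on assembled chromosomes were summed per gene, rescaled by the median of ratios over genes with a mean of at least 10, and tested as log2(FPKM + 1) with limma 3.58.1 where the mean was at least 1. P-values were adjusted over all tested genes. The read recovery and both fits were tested on simulated data. Alternatives were TMM, median of ratios, DESeq2 1.42.0, and FPKM as deposited or scaled by the upper quartile. Further ones were other minimums and pseudocounts, leaving out each library, and a replicate block on recovered reads only. A 3 against 3 or 3 against 2 exact permutation test cannot reach the threshold for a single gene, so none was run for them.

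The members and lists were chosen with earlier results of these data known. Of each list, the 2 genes with the smallest limma p and the most abundant are named. Of each marker list, the most abundant is named. The values of 1 gene of the pathway lists are not reported here.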

Additional observations from a re-analysis of the deposited data

How the results depend on the processing

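On FPKM, the number of genes called was 3015 (1812 higher, 1203 lower). With a minimum mean FPKM of 10, which tests fewer genes, it was 1897, with 949 higher, and 5 pathway genes were lower rather than 8. On FPKM as deposited 1213 genes were higher and 1591 lower, and 2 inhibitors rather than 4 were called higher. Leaving out each library gave 1611 to 2733 genes called, 969 to 1683 higher, 642 to 1050 lower, 0 to 3 inhibitors higher, and 7 to 11 pathway genes higher and 5 to 8 lower. Pseudocounts of 0.1 and 5 and no minimum left 4 inhibitors called, and upper-quartile scaling left 3, without SPRED2.

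On recovered reads, TMM gave 3585 genes called (1681 higher, 1904 lower) and the median of ratios 3601 (1712 and 1889), with 2 inhibitors higher and 0 lower under each, against 10532 called (24 higher, 10508 lower) on the spike-in scale. Changes turned positive under TMM and the median of ratios alike for DUSP1 (0.053 and 0.055), DUSP6 (0.45), DUSP10 (0.28), SPRY1 (0.12), SPRED1 (0.40) and SPRED2 (0.17), which follows from removing the shared shift. Without a minimum 38 genes were higher. DESeq2 on the spike-in factors called 20 higher and all 10 inhibitors lower. Leaving out each library gave 2824 to 11664 genes called, 5 to 32 higher, 2819 to 11641 lower, and 1 to 10 inhibitors lower. Where an arm was left with 1 library, it was assumed to vary like the other arm.

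With a replicate block 59 genes were called, 1 higher and 58 lower, and 0 inhibitors were called lower. In this fit siControl replicate 3 has no siChe-1 partner and little is left to measure spread, so few calls were likely beforehand. The changes of all inhibitors stayed below 0. Their standard errors were 0.70 to 0.80 with the block, against 0.34 to 0.49 without it. The median log2 change over all genes was -1.14 with the block and -1.24 without it. The labels do not say that equal numbers mark a shared culture. Over genes, deviations of same-numbered libraries from their group mean correlated at 0.21 and 0.24. With only 2 siChe-1 libraries, the deviation of one mirrors that of the other, so these 2 values are not separate pairs. They cannot tell whether a number marks a shared culture. FPKM were fitted without a block. At list position 2, DUSP2 and DUSP5 were highest, and DUSP6, SPRED1, SPRED2 and SPRY2 lowest, in both groups. DUSP1, DUSP10 and SPRY1 had no such shared extreme there. Whether libraries at the same list position share a source was not tested. Depth limits DUSP4 most, with 26 to 33 reads in siControl and 19 to 37 in siChe-1.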

Other observations

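Within a library, the ratio of DUSP6 to DUSP5, the cytoplasmic and the nuclear ERK phosphatase, does not depend on the scaling. This pair was chosen after its values were seen. On FPKM the ratio was 0.765, 0.488 and 0.623 in siControl, against 1.26, 0.838 and 1.07 in siChe-1, or 0.625 ± 0.139 against 1.06 ± 0.212 (SD, n = 3), and the groups did not overlap. On recovered reads, where gene length is not taken out, it was 0.991, 0.620 and 0.843 in siControl, against 1.55 and 1.08 in siChe-1, also without overlap. An exact permutation test was run but its p is not given, since the pair was picked for values that do not overlap.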
